A study of Mus musculus with 41 samples.

Results

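The comparison described here is that of SAMP8 with SAMR1 hippocampus at 9 months of age. It rests on the 6 libraries that the titles place in that tissue and at that age, 4 from SAMP8 and 2 from SAMR1, out of 41 libraries in the series. SAMP8 is an inbred senescence-prone mouse strain that develops deficits of learning and memory early in life, and SAMR1 is the related senescence-resistant strain used as its control. The animals were males with no treatment named in the labels, each library came from a mouse of its own, and the hippocampus was dissected from one hemisphere after perfusion with saline. The other libraries are cortex or hippocampus at 2.5, 6 and 9 months. The question of the comparison is which genes separate the strains at the latest age.

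The hippocampus holds the granule neurons of the dentate gyrus, which receive input from the entorhinal cortex, and the pyramidal neurons of CA3, CA2 and CA1, through which the signal leaves toward the subiculum and neocortex. It lies directly beneath the neocortex and borders the choroid plexus and the lining of the ventricle, so a dissected piece may carry cells of these neighbours. In bulk RNA, fewer cells of a type and less RNA per cell cannot be told apart. Inbred strains also differ at fixed loci, which can change the level of a transcript in many tissues and ages or in a few.

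Total counts were 2274202, 9955648, 2690333 and 1870852 in SAMP8 replicates 1 to 4, and 1089745 and 16439839 in SAMR1 replicates 1 and 2. SAMR1 replicate 1 was thus the shallowest library, with 16162 genes detected, against 18011 to 25515 in the others. All 6 libraries were of male type, with 57 to 1305 counts of the Y-linked Ddx3y and at most 4 of Xist. Libraries of the same strain differed from each other by more than counting noise, with a chi-square per degree of freedom of 6.60 to 30. Counts are given below as CPM, the count divided by the library total and rescaled, after TMM scaling, and a gene was called where its false discovery rate did not exceed 0.1 and its log2 fold change was 1 or more in size.

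Of 13014 genes tested with edgeR's quasi-likelihood F test, 59 (0.453%) were called, 25 (0.192%) higher and 34 (0.261%) lower in SAMP8. In all 59 the values of the 4 SAMP8 libraries lay to one side of both SAMR1 libraries, which was also so in 18.7% of all genes tested. They included strain-marking transcripts such as Vcp-rs, Dctn3, Gm6166, AC153155.1 and P3h2, which were called in the same direction in young animals. They also included genes called between hippocampus and cortex in young animals, among them Cdh7 and Stmn1, which are higher in cortex and were lower in SAMP8, and Lct, Spink8 and Il16, which are higher in hippocampus and were higher in SAMP8. Without SAMR1 replicate 1, which leaves 1 SAMR1 library that is assumed to vary as the SAMP8 libraries do, all 59 kept their direction and 48 had a log2 fold change of 1 or more in size. In that fit 5 genes were called, 4 of them among the 59, Gng4, AC153155.1 and Vcp-rs included, with Penk as the one outside them. Without SAMP8 replicate 2 the count was 29. Of the 59 genes, 3 were called in every fit with 1 library left out.

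The strain-marking transcripts were chosen on other libraries, the 3 SAMP8 and 4 SAMR1 hippocampus libraries of 2.5 months. Mouse number 11 occurs in the labels of SAMR1 hippocampus replicate 1 at 2.5 months and of SAMR1 replicate 1 at 9 months. In the libraries of 2.5 months 15 of 15425 genes tested (0.0972%) were called, 8 higher and 7 lower in SAMP8. At 9 months 10 of these 15 had enough counts to be tested, all 10 differed in the same direction as at 2.5 months, and 7 were called. Over all 12977 genes tested at both ages, 62.1% had the same direction.

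Vcp-rs, a processed copy of the gene for the ATPase Vcp at chrX:104345829-104348234 (positions are those of GENCODE on GRCm38), stood at 60.0, 42.4, 57.8 and 58.2 CPM in SAMP8 and at 10.1 and 10.5 CPM in SAMR1. All 4 SAMP8 libraries were thus several times above both SAMR1 libraries, and the log2 fold change was 2.38 ± 0.30 (SE, adjusted p = 0.00230) at 9 months and 2.24 ± 0.26 at 2.5 months. Vcp-rs was called under each of the alternative fits. As a copy of Vcp it may share reads with the parent gene, so its level is uncertain.

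Dctn3 encodes a small subunit of dynactin, which lets dynein carry loads along microtubules, and is found at chr4:41714798-41723170. It was at 88.1, 143.5, 112.2 and 99.3 CPM in SAMP8 and at 37.8 and 42.7 CPM in SAMR1. The groups did not overlap, and the log2 fold change was 1.45 ± 0.25 (SE, adjusted p = 0.0170) beside 1.59 ± 0.23 at 2.5 months.

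Gm6166, a processed pseudogene at chr9:57483963-57484371, and Gm6356, a predicted protein-coding gene at chr14:6965449-6973818, were close to absent from SAMR1. Gm6166 had 36.4, 43.4, 17.5 and 11.8 CPM in SAMP8 against 0 and 0.794 CPM in SAMR1 (log2 fold change 5.25 ± 0.71, adjusted p = 0.00896). Gm6356 had 29, 44, 8 and 16 counts in SAMP8 and 0 counts in both SAMR1 libraries. Set against a floor of 3 counts over the 2 SAMR1 libraries, it was at least 34.2-fold higher in SAMP8. Neither gene was called in the fit without SAMR1 replicate 1 or in that without SAMR1 replicate 2. Without SAMR1 replicate 1 the log2 fold changes of Gm6166 and Gm6356 were 5.09 and 8.52. Without SAMR1 replicate 2, which leaves the shallow SAMR1 library with 0 counts of both, they were 9.62 and 7.63.

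The reverse was seen for a pair of long noncoding RNAs. AC153155.1 at chr18:61484766-61489220 had 22.1 and 31.2 CPM in SAMR1 and 0, 0.412, 0.760 and 0 CPM in SAMP8, and B230217O12Rik at chr19:57323193-57360775 had 14.8 and 7.33 CPM in SAMR1 and no more than 0.760 CPM in SAMP8. AC153155.1 had the smallest adjusted p of all genes (9.67e-05, log2 fold change -6.18 ± 0.60), and that of B230217O12Rik was 0.0426 (log2 fold change -4.50 ± 0.88). P3h2, a prolyl hydroxylase that modifies collagen, at chr16:25959288-26105784, was likewise lower, at 4.38, 3.61, 4.94 and 5.34 CPM in SAMP8 against 15.7 and 22.6 CPM in SAMR1 (log2 fold change -2.14 ± 0.42 at 9 months and -2.26 ± 0.30 at 2.5 months).

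**Figure D1:**
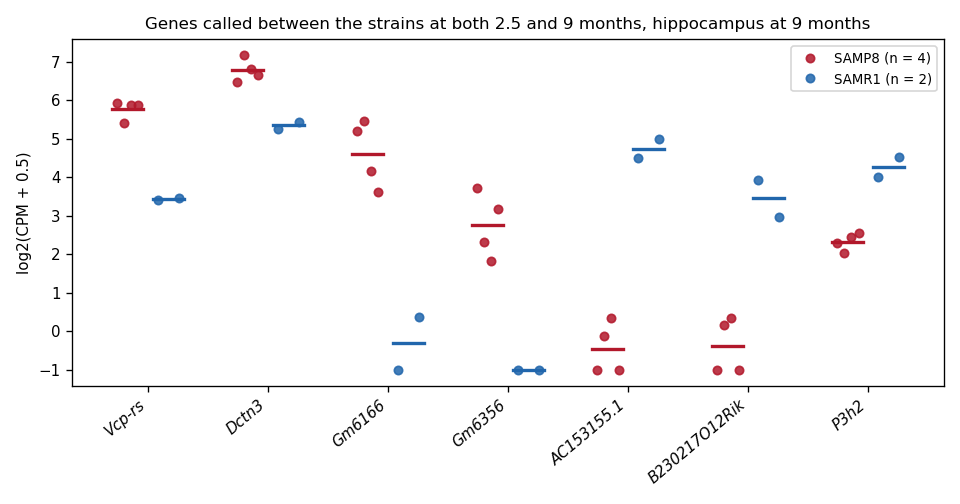
Levels of the 7 genes called between SAMP8 and SAMR1 in hippocampus at both 2.5 and 9 months, as log2(CPM + 0.5) in each library at 9 months. Points are libraries and short lines are strain means. The 4 SAMP8 and 2 SAMR1 libraries lie apart for every gene shown, from Dctn3 (88.1 to 143.5 against 37.8 and 42.7 CPM) to AC153155.1 (0 to 0.760 against 22.1 and 31.2 CPM).

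Of the other 8 genes called in young hippocampus, Gm13306, Gm7887 and Ppp1r1a were tested at 9 months and did not pass. Gm7887 was at 0 to 3.80 CPM in SAMP8 and at 12.9 and 14.7 CPM in SAMR1 (log2 fold change -2.37 ± 0.64, adjusted p = 0.152). Ppp1r1a, an inhibitor of protein phosphatase 1, overlapped between the strains, at 46.9, 54.7, 85.9 and 34.2 CPM against 79.3 and 93.3 CPM (log2 fold change -0.64 ± 0.28, adjusted p = 0.546). The remaining 5 had too few counts, among them Lefty1, an inhibitor of Nodal signalling, with 0 counts in all 4 SAMP8 libraries and 2 and 77 counts in SAMR1.

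The strain labels were checked with those 12 of these genes whose log2 fold change at 2.5 months was 2 or more in size. The share of SAMP8-type transcripts was 0.901 to 0.964 in the 4 SAMP8 and 0.0608 and 0.0614 in the 2 SAMR1 libraries, so that all 6 matched their labels. This did not hold for cortex at 9 months, since labelled SAMP8 libraries had shares of 0.0697 to 0.205 and labelled SAMR1 libraries shares of 0.851 to 0.938. Cortex libraries of that age entered the fit over all 41 libraries. They also entered the TMM scaling over all 41 libraries, made without strain labels, that lies behind these shares, the positions between regions and the list levels.

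The genes that the study lists as different at 2.5 months over both regions were followed as well. The list was chosen by the study on animals of that age, and 1 of its 8 genes, Dctn3, was called at 9 months. Fabp5, a fatty acid carrier of glia and neural precursors, had 22.8, 42.9, 28.1 and 28.8 CPM in SAMP8 and 70.1 and 62.8 CPM in SAMR1, without overlap, and missed the threshold (log2 fold change -1.08 ± 0.27, adjusted p = 0.114). Ranbp9, a scaffold protein that binds Ran, was at 113.7 to 193.2 against 90.3 and 85.9 CPM (log2 fold change 0.77 ± 0.22, adjusted p = 0.190). Rprl3, a RNA of the ribonuclease P family, varied from 147.4 to 714.8 CPM within SAMP8 and was at 99.6 and 68.5 CPM in SAMR1 (adjusted p = 0.657). The imprinted genes Nnat (log2 fold change -0.41 ± 0.47) and Peg10 (-0.24 ± 0.32) and the huntingtin-associated Hap1 (-0.08 ± 0.24) overlapped between the strains, with adjusted p of 0.876, 0.893 and 0.963.

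The genes called at 9 months were next set against regional expression in young animals. Hippocampus was compared with cortex in the 2.5-month libraries of both strains, none of which enters the 9-month comparison. In 4 mice both regions were sequenced, which the fit did not take into account. Of the 34 genes lower in SAMP8, 29 were higher in cortex than in hippocampus at 2.5 months by sign, against 48.1% of all genes tested in both, and 7 were called higher in cortex, against 1.06% of all genes. Of the 25 genes higher in SAMP8, 19 were higher in hippocampus by sign, against 51.9% of all genes, and 11 were called higher in hippocampus, against 1.86% of all genes. One gene lower in SAMP8, Thbs4, was called higher in hippocampus, and no gene higher in SAMP8 was called higher in cortex.

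**Figure D2:**
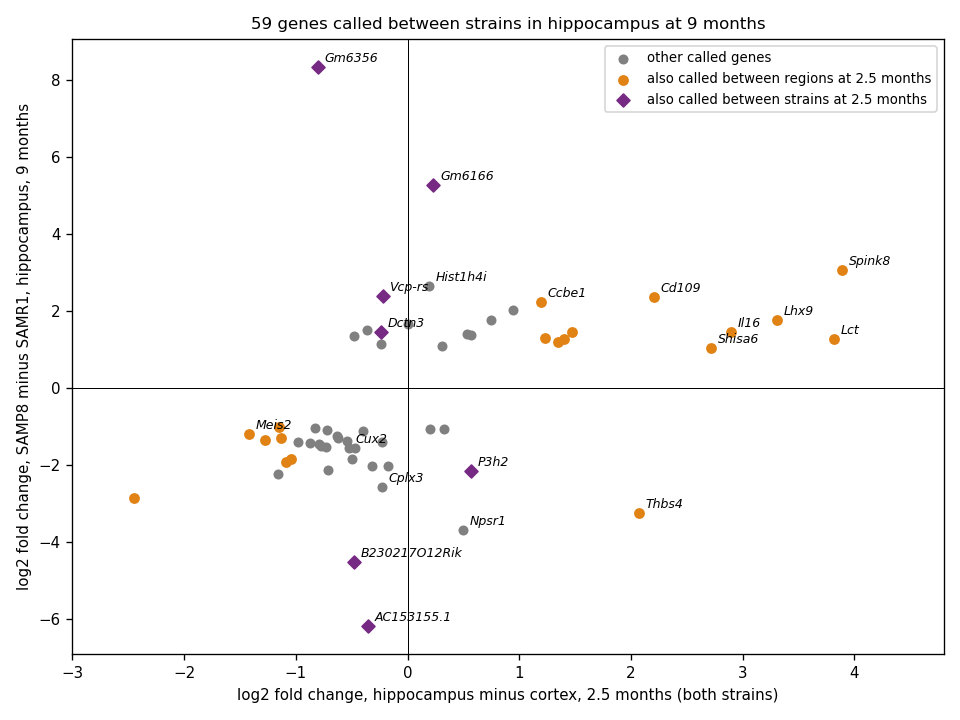
The 59 called genes, with the log2 fold change of SAMP8 minus SAMR1 in hippocampus at 9 months on the y axis and the log2 fold change of hippocampus minus cortex at 2.5 months on the x axis. Orange points were also called between the regions and purple diamonds between the strains at 2.5 months. Most points lie in the lower left and upper right, while the purple diamonds lie near 0 on the x axis, between -0.80 (Gm6356) and 0.57 (P3h2).

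Each library was then placed on a line between the regions by 156 genes, 93 higher in hippocampus and 63 higher in cortex, with 0 for the mean of cortex and 1 for the mean of hippocampus at 2.5 months. These means were taken over 2.5-month libraries of at least 1000000 counts. The 4 SAMP8 libraries stood at 0.978, 1.15, 1.20 and 1.32, and the 2 SAMR1 libraries at 0.667 and 0.927. Cortex at 2.5 months ranged from -0.175 to 0.126, both ends being libraries, of 28861 and 500986 counts, that did not set the scale. Hippocampus at 2.5 months ranged from 0.906 to 1.16 over both strains. SAMR1 replicate 1 was therefore below the range of young hippocampus, SAMR1 replicate 2 was within it, and SAMP8 replicates 3 and 4 were above it. The strains did not overlap, with p = 0.0667 in a two-sided exact permutation test, the smallest value that the 15 regroupings of 4 against 2 libraries allow. At 9 months 74 of the 93 hippocampus-high genes were higher in SAMP8, with a median log2 fold change of 0.45, and 49 of the 62 cortex-high genes tested were lower, with a median of -0.76, while the median of all genes tested was 0.02. 

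With the position as a covariate, 5 genes were called, of which 3 were among the 59. These were Vcp-rs (log2 fold change 2.38), Gm6166 (6.21) and AC153155.1 (-6.84), all of them called at 2.5 months. The other 2 were Synpr, a synaptic vesicle protein, higher by a log2 fold change of 1.92, and C4b, a complement component, lower by a log2 fold change of -2.34. They were named after their values were seen. The covariate and strain are themselves related in these 6 libraries, and 3 residual degrees of freedom remained.

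**Figure D3:**
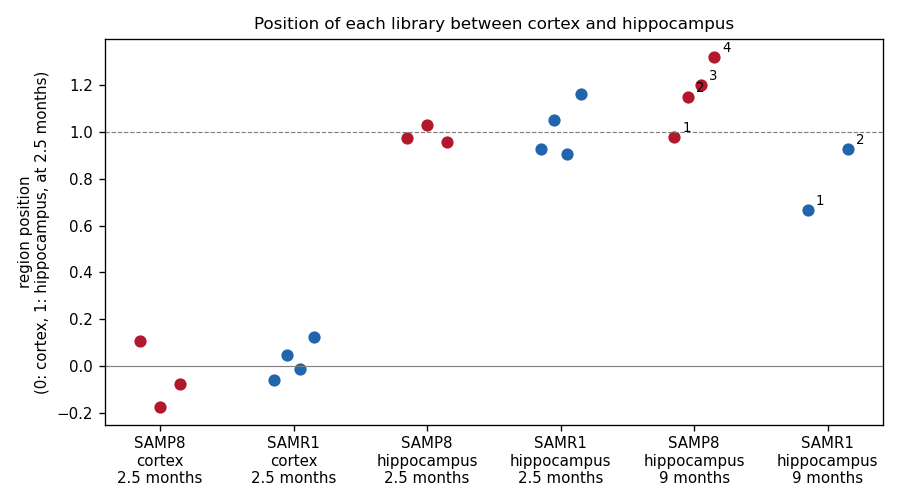
Position of each library between cortex (0) and hippocampus (1) at 2.5 months, from 156 genes, for the 2.5-month libraries and for hippocampus at 9 months, where numbers give the replicate. The scale was set by the 2.5-month libraries of at least 1000000 counts. Red points are SAMP8 and blue points SAMR1. The 4 SAMP8 libraries at 9 months lie between 0.978 and 1.32 and the 2 SAMR1 libraries at 0.667 and 0.927.

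Genes known from cortical neurons were among those lower in SAMP8. Cux2, a factor of upper cortical layers, had 60.5, 40.2, 38.02 and 38.5 CPM in SAMP8 against 189.9 and 77.8 CPM in SAMR1 (log2 fold change -1.55 ± 0.31, adjusted p = 0.0536). Cplx3, a complexin of the deepest cortical layer, had 12.3, 3.71, 3.04 and 2.14 against 25.8 and 33.98 CPM (log2 fold change -2.56 ± 0.50, adjusted p = 0.0426). Neither was called between hippocampus and cortex at 2.5 months (adjusted p = 0.262 for Cux2 and 0.909 for Cplx3). SAMP8 replicate 1 was the highest of its strain for Cux2 and Cplx3, and it also had the lowest position of its strain between the regions. Without SAMR1 replicate 1 Cux2 had a log2 fold change of -0.83 and was not called, and without SAMP8 replicate 1 Cplx3 had one of -3.26.

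Over the list of cortical layer genes, 3 of 16 tested were called, all lower, and 14 of 16 were below 0 with a median log2 fold change of -0.65. Mef2c and Tbr1, both factors of cortical projection neurons, had log2 fold changes of -1.28 ± 0.32 and -0.79 ± 0.27 that did not pass (adjusted p = 0.192 and 0.309). The summed level of the list was 746.7 to 1262 CPM in SAMP8 and 2185 and 1423 CPM in SAMR1. In the list of striatal genes 1 of 10 was called, on the lower side, with a median of -0.28. Penk, the enkephalin precursor, was at 12.8 to 22.8 CPM in SAMP8 and 20.3 and 70.9 CPM in SAMR1, and was not called (adjusted p = 0.174).

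Other genes of the lower group act in adhesion, guidance and signalling. Cdh7, a cadherin, had 7.01, 8.04, 9.89 and 9.61 CPM in SAMP8 against 42.4 and 25.1 CPM in SAMR1 (log2 fold change -1.93 ± 0.35), and Gng4, a G protein gamma subunit, had 13.1, 9.69, 15.2 and 13.9 CPM against 40.6 and 49.6 CPM (log2 fold change -1.84 ± 0.29). Rassf3, of the Ras association family, was lower by a log2 fold change of -2.13 ± 0.34, and Plxnd1, a receptor for semaphorins, by -1.51 ± 0.31. Efnb2, a ligand of Eph receptors, was at 20.3 to 37.7 against 82.96 and 69.7 CPM (log2 fold change -1.36 ± 0.26). Adjusted p of these 5 genes lay between 0.0107 and 0.0529. The neural factors Pou3f2 (-1.52 ± 0.36) and Tshz3 (-1.55 ± 0.32), the palmitoyltransferase Zdhhc22 (-1.83 ± 0.38) and the formin Fhod3 (-1.45 ± 0.30) were also lower, with adjusted p between 0.0534 and 0.0990. Without SAMR1 replicate 1 the log2 fold changes of Pou3f2 and Plxnd1 were -0.69 and -0.89, and neither was called, while that of Pou3f2 was -2.15 without SAMR1 replicate 2.

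Kcnj9 and Cit were picked for mention after their values were seen. Kcnj9 encodes a subunit of the potassium channels that G proteins open, and it had 49.9, 64.1, 62.0 and 47.5 CPM in SAMP8 and 178.8 and 123.9 CPM in SAMR1 (log2 fold change -1.41 ± 0.22, adjusted p = 0.00995). Cit, the citron kinase, had 89.8, 75.7, 110.3 and 75.8 CPM against 231.4 and 201.5 CPM (log2 fold change -1.30 ± 0.20, adjusted p = 0.00995). Predicted or clone-named genes in the lower group were Gm14410, 4930452B06Rik and 9330162G02Rik, with log2 fold changes of -2.03, -2.01 and -1.05.

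Of the 5 lower genes that were on the hippocampal side in young animals by sign, Thbs4 and Npsr1 had the largest strain differences. Thbs4, a secreted thrombospondin, had 0, 1.86, 1.52 and 2.14 CPM in SAMP8 and 7.37 and 18.9 CPM in SAMR1 (log2 fold change -3.25 ± 0.65, adjusted p = 0.0444), although in young animals it was higher in hippocampus than in cortex (log2 fold change 2.07). Npsr1, the receptor for neuropeptide S, had 0, 1.13, 1.52 and 0 CPM against 9.22 and 11.8 CPM (log2 fold change -3.69 ± 0.79, adjusted p = 0.0585), with 0.50 for hippocampus minus cortex. Thbs4 had a log2 fold change of -2.34 without SAMR1 replicate 2 and of -3.70 without SAMR1 replicate 1, and was called in neither fit. Both were near the detection limit in SAMP8, and with the position as covariate their log2 fold changes were -5.27 and -4.24 without a call.

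Among genes of progenitors and immature neurons 1 was called. Stmn1, a microtubule-destabilizing protein of growing neurons, had 53.4, 30.1, 43.7 and 22.97 CPM in SAMP8 and 120.8 and 75.1 CPM in SAMR1 and was called (log2 fold change -1.36 ± 0.30, adjusted p = 0.0744). Dcx, a microtubule protein of newborn neurons, was at 13.9 to 22.8 against 53.5 and 30.1 CPM without passing (log2 fold change -1.27 ± 0.32, adjusted p = 0.117). Sox4 (-0.87 ± 0.31) and Sox11 (-0.58 ± 0.27), factors of neuronal differentiation, did not pass either. In the list of progenitor and immature neuron genes 8 of 10 were below 0 with a median of -0.64, which was -0.27 without SAMR1 replicate 1 and -0.31 with the position as covariate. Stmn1 was higher in cortex than in hippocampus at 2.5 months (log2 fold change -1.27 for hippocampus minus cortex).

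In each of the lists of dentate, CA2 and CA3, and CA1 neurons 1 gene was called, higher in SAMP8. Lct, lactase, a marker of dentate granule neurons, had 64.4, 60.4, 87.8 and 74.2 CPM in SAMP8 and 31.3 and 28.1 CPM in SAMR1 (log2 fold change 1.29 ± 0.25, adjusted p = 0.0426). In the dentate list 12 of 15 genes were above 0, with a median of 0.44, and Lct alone was called. Prox1, which maintains granule neuron identity, was at 161.8 to 227.5 against 132.7 and 110.2 CPM (log2 fold change 0.71 ± 0.20, adjusted p = 0.176). Dsp, desmoplakin, was at 91.6, 194.3, 174.9 and 179.5 against 86.7 and 51.9 CPM (adjusted p = 0.117), and Tdo2, a tryptophan dioxygenase, was at 6.41 to 13.6 against 1.84 and 2.57 CPM (adjusted p = 0.176).

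Spink8, a protease inhibitor that marks CA1, had 7.88, 7.01, 9.89 and 14.96 CPM in SAMP8 and 0 and 1.41 CPM in SAMR1 (log2 fold change 3.06 ± 0.71, adjusted p = 0.0895). It was called in 1 of the 6 fits with 1 library left out. The other 6 genes of the CA1 list were not called and 5 of the 7 were below 0 (median -0.14, and -0.46 without SAMR1 replicate 1), among them Mpped1 at 67.0 to 122.8 against 154.9 and 141.4 CPM (log2 fold change -0.58 ± 0.22, adjusted p = 0.437). All 8 genes of the CA2 and CA3 list were above 0, with a median of 0.55. Of them Bok, a BCL2 family protein, was called at 33.3, 43.1, 49.8 and 63.0 against 14.8 and 19.7 CPM (log2 fold change 1.39 ± 0.31, adjusted p = 0.0744), and Rgs14, a G protein regulator of CA2, was at 48.2 to 85.9 against 36.9 and 36.4 CPM (adjusted p = 0.211).

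Several receptors, secreted factors and enzymes were higher in SAMP8. Il16, the precursor of a cytokine that in neurons is a scaffold protein, had 62.2, 59.4, 45.6 and 40.1 CPM against 18.4 and 19.4 CPM (log2 fold change 1.45 ± 0.29, adjusted p = 0.0426). Il1r1, the receptor for interleukin-1, had 29.8, 15.9, 31.2 and 17.1 CPM against 3.69 and 6.54 CPM (log2 fold change 2.01 ± 0.43, adjusted p = 0.0585). Lpl, lipoprotein lipase, which releases fatty acids from lipoproteins, had 128.8, 122.5, 114.1 and 130.3 CPM against 32.3 and 62.3 CPM (log2 fold change 1.30 ± 0.24, adjusted p = 0.0354). SAMP8 values of Lpl were within a narrow range, and the spread lay between the SAMR1 libraries. Without SAMR1 replicate 2 the log2 fold changes of Lpl and Il1r1 were 1.95 and 2.66. Without SAMR1 replicate 1 they were 0.97 and 1.81, that of Lpl being below the threshold of 1. Lpl was the gene called of 13 tested in the list of disease-associated microglia, and it was also called higher in hippocampus than in cortex at 2.5 months (log2 fold change 1.23).

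Nr4a3, a nuclear receptor induced by neuronal activity, had 155.1, 171.1, 127.7 and 118.0 CPM in SAMP8 and 39.6 and 60.5 CPM in SAMR1 (log2 fold change 1.46 ± 0.24, adjusted p = 0.0125). It was the gene called of 27 immediate early genes tested, of which 8, Nr4a3 included, were above 0 and 19 below, with a median of -0.42. Npas4, which neuronal calcium entry induces, was at 2.14 to 5.56 against 27.7 and 11.2 CPM (log2 fold change -1.95 ± 0.51, adjusted p = 0.129), and Dusp1, a phosphatase of MAP kinases, at 14.2 to 22.4 against 46.1 and 27.99 CPM (adjusted p = 0.211). Ptgs2, cyclooxygenase-2, was at 21.7 to 36.3 against 12.9 and 18.1 CPM (log2 fold change 0.88 ± 0.32, adjusted p = 0.374).

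Cd109, a membrane protein that binds TGF-beta, was higher by a log2 fold change of 2.37 ± 0.47 and Ccbe1, a secreted factor of lymphatic growth, by 2.22 ± 0.38. Ccbe1 had 21.9, 41.9, 36.1 and 39.0 CPM in SAMP8 and 3.69 and 8.92 CPM in SAMR1. The homeobox gene Lhx9 (1.77 ± 0.40), the Ras-like Rerg (1.78 ± 0.36) and Lrrc10b (1.41 ± 0.32) were higher as well. Invs, a protein of the primary cilium at chr4:48279760-48431954, had 42.5, 35.5, 47.1 and 26.2 CPM against 5.53 and 14.9 CPM (log2 fold change 1.67 ± 0.36, adjusted p = 0.0608), with 0.99 at 2.5 months, where it did not pass (adjusted p = 0.132). Adjusted p of these 6 genes lay between 0.0197 and 0.0774. Without SAMR1 replicate 2 the log2 fold changes of Ccbe1, Lhx9, Invs and Lrrc10b were 3.25, 2.67, 2.78 and 2.38. Without SAMR1 replicate 1 they were 1.955, 1.499, 1.336 and 1.048. A pair of genes known by identifier alone were also higher, ENSMUSG00002076161 at 7025 to 12370 against 4696 and 4004 CPM (log2 fold change 1.15 ± 0.22) and ENSMUSG00002075987 at 29.3 to 49.1 against 14.8 and 17.8 CPM (log2 fold change 1.34 ± 0.31).

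**Figure D4:**
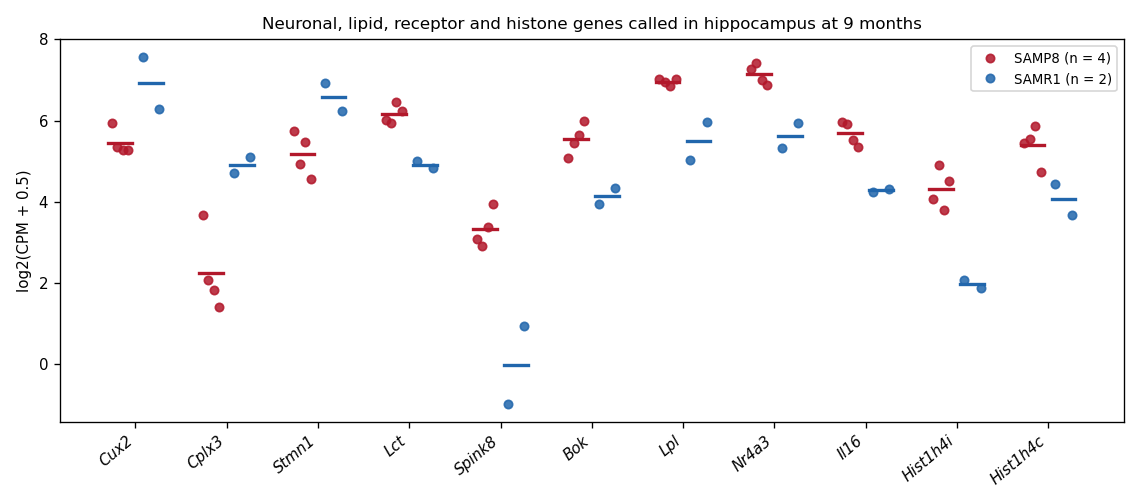
Levels of 11 called genes in each library of hippocampus at 9 months, as log2(CPM + 0.5). Points are libraries and short lines are strain means. Cux2, Cplx3 and Stmn1 on the left are lower in the 4 SAMP8 libraries (Cux2 38.02 to 60.5 against 189.9 and 77.8 CPM), and the other 8 genes are higher (Lct 60.4 to 87.8 against 31.3 and 28.1 CPM).

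Histone H4 genes formed a family of their own among the higher genes. Libraries were made from total RNA after depletion of ribosomal RNA, a method that retains transcripts without a poly(A) tail, as those of replication-dependent histones are. Hist1h4i had 16.2, 29.4, 13.3 and 22.4 CPM in SAMP8 and 3.69 and 3.18 CPM in SAMR1 (log2 fold change 2.64 ± 0.47, adjusted p = 0.0275). Hist1h4c had 42.9, 46.6, 57.8 and 26.2 CPM against 21.2 and 12.2 CPM (log2 fold change 1.51 ± 0.36, adjusted p = 0.0946). With 1 library left out, Hist1h4i was called in 3 of the 6 fits and Hist1h4c in 1. The H4 genes were not among the gene lists and are shown because 2 of them were called. Their shared direction is therefore a description and not a test. All 12 H4 genes tested, the 2 called ones included, had a log2 fold change above 0, from 0.01 in Hist2h4 to 2.64. Of all genes tested, 47.5% were below 0. Most of the 12 overlapped between the strains, such as Hist4h4 with 14.96 CPM in SAMP8 replicate 4 and 16.59 CPM in SAMR1 replicate 1. Hist1h4d was at 36.3 to 122.9 against 71.9 and 48.3 CPM, with SAMP8 replicate 4 below both SAMR1 libraries. The coding sequences of the H4 genes are nearly identical, so reads may be divided among them in ways the counts do not show.

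The promoters of both called H4 genes are shown because both genes were higher in SAMP8. SAMP8 replicate 3 was the lowest of its strain for Hist1h4i and the highest for Hist1h4c. The promoters of Dctn3 and Invs are shown as examples of genes on chromosome 4 that were higher in SAMP8. Nr4a3, at chr4:48045153-48086447, was called higher as well, and Stmn1 and Pou3f2 on the same chromosome were called lower. The sequences are from RefSeq on GRCm38.p6, where Hist1h4c and Hist1h4i have the symbols H4c3 and H4c9, and run from 250 bases before to 50 bases after the transcription start. They are the reference sequence, not that of SAMP8 or SAMR1. Capitals mark matches on either strand to the letters TATAAA, as in the TATA box, to CCAAT, as in the CCAAT box, and to GGTCCG, a stretch that H4 promoters share. Matches were sought anywhere in the window, without regard to their distance from the transcription start. A match is therefore not shown to be a working promoter element. The matches shown do not overlap each other. The windows lie at chr13:23698409-23698708, chr13:22041313-22041612 and chr4:41723114-41723413, all on the minus strand, and at chr4:48279510-48279809 on the plus strand.
Hist1h4c: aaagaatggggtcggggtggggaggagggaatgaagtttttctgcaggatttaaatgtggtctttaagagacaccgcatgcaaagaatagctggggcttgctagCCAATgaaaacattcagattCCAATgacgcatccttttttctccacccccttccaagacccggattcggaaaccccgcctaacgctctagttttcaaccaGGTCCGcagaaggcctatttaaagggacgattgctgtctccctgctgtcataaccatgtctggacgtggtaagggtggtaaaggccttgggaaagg
Hist1h4i: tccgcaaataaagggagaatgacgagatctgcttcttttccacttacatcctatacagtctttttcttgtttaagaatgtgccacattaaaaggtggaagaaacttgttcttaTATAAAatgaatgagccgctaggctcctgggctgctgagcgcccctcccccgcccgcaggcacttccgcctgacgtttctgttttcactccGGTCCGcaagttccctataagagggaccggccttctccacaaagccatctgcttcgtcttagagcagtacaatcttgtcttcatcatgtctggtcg
Dctn3: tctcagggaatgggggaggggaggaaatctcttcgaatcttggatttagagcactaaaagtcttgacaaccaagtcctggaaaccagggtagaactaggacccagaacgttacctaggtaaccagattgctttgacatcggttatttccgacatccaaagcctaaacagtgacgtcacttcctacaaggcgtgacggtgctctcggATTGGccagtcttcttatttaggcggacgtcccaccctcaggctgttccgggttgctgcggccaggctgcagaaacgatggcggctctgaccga
Invs: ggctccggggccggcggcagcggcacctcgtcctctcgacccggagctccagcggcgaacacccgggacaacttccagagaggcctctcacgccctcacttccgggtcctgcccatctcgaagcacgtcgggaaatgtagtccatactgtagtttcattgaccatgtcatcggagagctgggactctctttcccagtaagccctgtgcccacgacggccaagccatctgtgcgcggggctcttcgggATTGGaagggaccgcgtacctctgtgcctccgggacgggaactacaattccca
GGTCCG was found in 10 of 11 H4 promoters in the table and in 8.25% of all 32851 promoters of this length, including both called H4 genes. A TATAAA match was in 8 of the 11 and in 13.6% of all promoters, and a CCAAT match in 3 of the 11 and in 37.4%. Dctn3 and Invs each held the latter, written in reverse complement, and neither of the other motifs.

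Glial lists gave few calls. In the microglia list 13 of 18 genes were above 0 with a median log2 fold change of 0.32, and none was called. Gpr34, a receptor of microglia, was at 19.8 to 29.8 against 14.8 and 9.41 CPM (log2 fold change 1.13 ± 0.35, adjusted p = 0.243), and Trem2, a lipid-sensing receptor, at 8.45 to 13.7 against 3.69 and 7.70 CPM (adjusted p = 0.669). Aif1, which encodes the Iba1 protein used to stain microglia, overlapped between the strains at 4.38 to 10.9 against 9.22 and 7.27 CPM (log2 fold change -0.03 ± 0.51, adjusted p = 0.995). Reactive astrocyte genes had a median of 0.70, with 7 of 10 above 0 and none called. Of them Gfap, the astrocyte filament, was at 541.9, 718.8, 491.6 and 712.0 CPM in SAMP8 and at 300.5 and 485.4 CPM in SAMR1 (log2 fold change 0.64 ± 0.22, adjusted p = 0.335), Vim at 42.6 to 49.1 against 22.1 and 25.2 CPM (adjusted p = 0.174) and Serpina3n at 52.3 to 116.5 against 31.3 and 62.2 CPM (adjusted p = 0.342). The general astrocyte list had a median of -0.00266, and that of oligodendrocyte precursors 0.02. Oligodendrocyte and myelin genes had a median of 0.11, which was -0.24 without SAMP8 replicate 4 and -0.28 without SAMR1 replicate 1.

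SAMP8 replicate 4 stood apart in genes of the choroid plexus, the tissue that secretes cerebrospinal fluid. Their summed level was 14530 CPM in that library, 312.1 to 725.4 CPM in the other SAMP8 libraries and 299.9 and 381.5 CPM in SAMR1. Ttr, transthyretin, was at 7072 CPM there and at 31.3 to 277.2 CPM in the other 5 libraries. In the fit 14 of 15 choroid plexus genes were above 0 with a median of 3.37, no gene was called, and the median was 0.46 without SAMP8 replicate 4. Genes of ependyma and motile cilia, which line the ventricle, were at 348.4 CPM in the same library and 119.6 to 154.9 CPM in the others, with no call. Leaving this library out gave 60 called genes, 46 of them among the 59.

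Other cell types of vessel and meninges were measured in the same way. All 12 leptomeningeal and fibroblast genes tested were above 0 with a median of 0.97, none was called, and the summed level was 110.7 to 225.1 against 66.2 and 90.6 CPM. Lum and Ogn, proteoglycans of connective tissue, had log2 fold changes of 1.83 ± 0.61 and 1.84 ± 0.63 (adjusted p = 0.297 and 0.350). Endothelial, pericyte and thalamic lists had medians of 0.23, 0.53 and 0.39 with no call. The endothelial median was -0.03 without SAMR1 replicate 1. Red blood cell genes had a median of -0.33 and inhibitory interneuron genes one of -0.18, again with no call.

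Pathway lists were described by their counts, beside a median of 0.02 over all genes. Of 81 cytosolic ribosomal protein genes 76 were above 0 with a median of 0.39, and 19 had an unadjusted p under 0.05, all of them above 0, while none was called. Rps16 was at 120.5, 98.7, 99.6 and 70.5 CPM in SAMP8 and at 44.2 and 57.7 CPM in SAMR1 (log2 fold change 0.90 ± 0.24, adjusted p = 0.149), and Rpl10 had a log2 fold change of 0.82 ± 0.23 (adjusted p = 0.170). Their summed level nevertheless overlapped, at 10660, 11960, 9772 and 7212 CPM in SAMP8 and 7615 and 7939 CPM in SAMR1, with SAMP8 replicate 4 the lowest of all. Respiratory chain genes of the nucleus had a median of 0.21 (59 of 73 above 0), and those of the mitochondrion one of -0.29 (12 of 13 below 0). The cytochrome oxidase subunit mt-Co2 was at 50.6 to 65.7 against 91.3 and 112.8 CPM (log2 fold change -0.81 ± 0.21, adjusted p = 0.128). No gene of these lists was called.

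Antioxidant genes had a median of 0.37 with 17 of 22 above 0, led by Gpx4, the peroxidase of lipid hydroperoxides, at 84.6 to 93.4 against 47.9 and 60.9 CPM (log2 fold change 0.69 ± 0.21, adjusted p = 0.228). Circadian clock genes had a median of -0.33 with 12 of 16 below 0, among them Npas2 (-0.87 ± 0.29), Nr1d1 (-0.54 ± 0.20), Dbp (-0.60 ± 0.24) and Ciart (-0.99 ± 0.45). None of these 4 passed (adjusted p between 0.293 and 0.555), and the time of tissue collection is not given per library in the sources used here. All 8 genes of steroid hormone synthesis tested were above 0 with a median of 0.49, among them Cyp7b1 (0.83 ± 0.36) and Hsd11b1 (0.79 ± 0.35), both with adjusted p above 0.5. Antigen presentation and interferon genes had a median of 0.23 with 6 of 12 above 0, Ifi27 being at 20.1 to 40.6 against 5.53 and 11.7 CPM (adjusted p = 0.172). The lists of Alzheimer's disease genes, senescence and secreted factors, excitatory synapse, reward signalling, cholesterol synthesis, heat shock and endoplasmic reticulum stress, and histone and DNA modifiers had medians of 0.30, 0.05, -0.09, -0.07, 0.11, 0.04 and -0.08, and no gene in them was called. Without SAMR1 replicate 1 the medians of the Alzheimer's disease, cholesterol and heat shock lists fell below 0, to -0.09, -0.02 and -0.006. With the position as covariate the Alzheimer's disease median was -0.08.

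**Figure D5:**
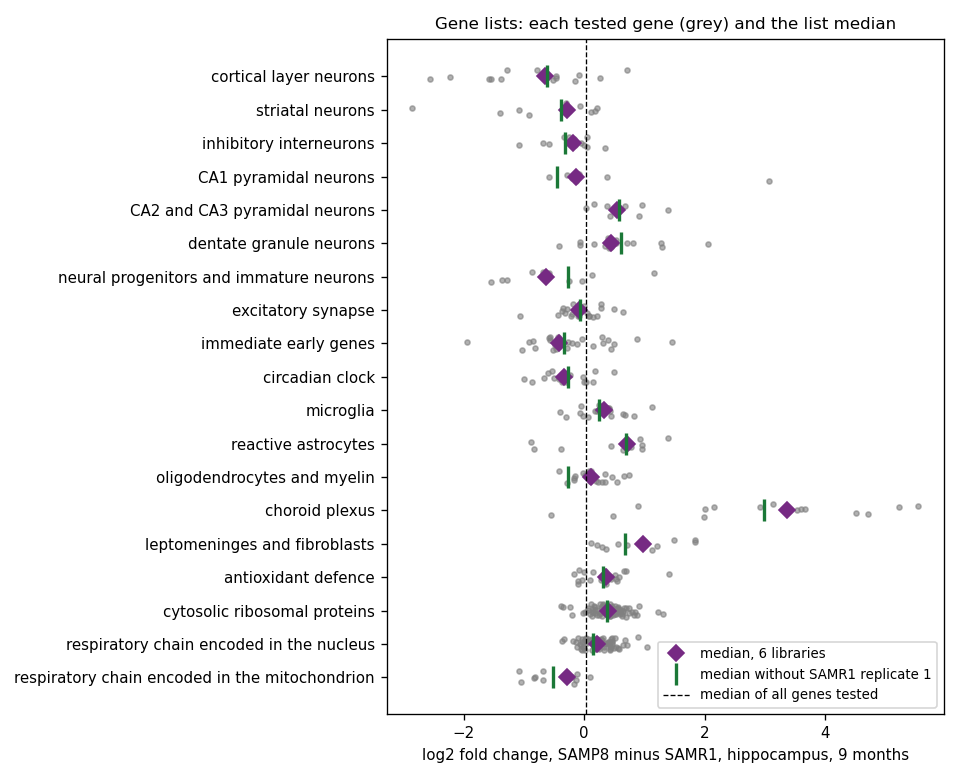
Log2 fold change of SAMP8 minus SAMR1 in hippocampus at 9 months for 19 gene lists. Grey points are tested genes, purple diamonds list medians and green bars the medians without SAMR1 replicate 1, and the dashed line is the median of all genes tested (0.02). Cortical layer genes have a median of -0.65, dentate granule genes of 0.44 and ribosomal protein genes of 0.39, while that of choroid plexus genes, 3.37, is 0.46 without SAMP8 replicate 4.

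Mean log2 CPM per library was compared between the strains for all 36 lists by a two-sided exact permutation test, in which 4 against 2 libraries cannot give a p below 0.0667. The exact permutation p was at this smallest value in 6 lists and was 0.299 for each of them after Benjamini-Hochberg adjustment over the 36. Strains did not overlap in these 6. They did not overlap in some other lists either, where the exact permutation p was 0.133. Among these were cortical layer neurons (4.00 to 5.12 against 5.55 and 5.44) and dentate granule neurons (5.70 to 6.07 against 5.53 and 5.20). Of the 6 lists at the smallest p, those lower in SAMP8 were progenitors and immature neurons (2.86 to 3.23 against 3.57 and 3.59), striatal neurons (2.15 to 2.50 against 2.70 and 3.36) and the circadian clock (5.74 to 5.96 against 6.21 and 6.08). Those higher were disease-associated microglia (3.63 to 3.94 against 3.24 and 3.54), antioxidant defence (5.65 to 5.98 against 5.26 and 5.60) and cholesterol synthesis (4.96 to 5.11 against 4.62 and 4.96, the lowest SAMP8 and the highest SAMR1 library being alike to the second decimal). In each of these higher lists SAMR1 replicate 1, the shallowest library, was the lowest. Summed CPM overlapped between the strains in each of them, as for disease-associated microglia (2536 to 3759 against 2734 and 3282). It also overlapped for progenitors and immature neurons (297.4 to 474 against 495 and 424.6), but not for striatal neurons or the circadian clock.

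Whether the strain difference itself changed between 2.5 and 9 months was tested as an interaction over the 13 hippocampus libraries of these ages. Of 14424 genes 0 (0%) were called by edgeR, although 558 had a p below 0.05 before adjustment. DESeq2 called 1. Without SAMP8 replicate 1 edgeR called 2 (Cplx3 and Zdhhc22), and without SAMR1 replicate 2 it called 2, Gm37717 among them. The genes named here were picked for the smallest p of this test. Among them were Dusp1 (difference of log2 fold changes -1.59), Hecw2, a ubiquitin ligase (-1.13), and Gpr137c (-1.27). For these 3 all SAMP8 libraries were above all SAMR1 libraries at 2.5 months and below both at 9 months. Their adjusted p were 0.668, 0.751 and 0.804, and the share of all genes with this order was not counted. Epb41, a protein of the membrane skeleton, overlapped between the strains at 2.5 months (61.8 to 80.1 against 48.5 to 64.9 CPM) and did not pass (-1.36, adjusted p = 0.751). Gm37717, a predicted gene, had a difference of -6.03 (adjusted p = 0.668) and was at no more than 0.206 CPM in SAMP8 at 9 months. Efnb2 (-1.32) and Zdhhc22 (-1.96) did not pass either, with adjusted p of 0.804.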

How the data were processed

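Total RNA from hippocampus or cortex was extracted with TRIzol, depleted of ribosomal RNA and made into CORALL libraries with molecular identifiers, which were sequenced on a NextSeq 500. The authors deposited one table of raw counts of deduplicated reads per gene over 41 libraries, made with UMI-tools, cutadapt, STAR and featureCounts against GRCm38. Counting used the forward strand. Versions of the aligner and counter were not stated in the sources used here. Of 55359 gene identifiers 52083 (94.1%) matched GENCODE M21, which gave positions.

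The 6 libraries were grouped by their titles. Low counts were removed with filterByExpr, libraries were scaled by TMM, and strains were compared with the robust quasi-likelihood F test of edgeR 4.0.16 in R 4.3.3, with Benjamini-Hochberg adjustment over all genes tested. The 2.5-month strain, region and interaction fits used the same steps. Standard errors are those of the fitted log2 fold change. Each of the 6 libraries is one mouse, totals ran from 1089745 to 16439839 counts, and counting error is largest in the shallowest. Lists with no called gene are described by counts and medians. The scripts were tested on simulated data.

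Named genes were, per direction, up to 15 called genes with the largest fold change and up to 5 with predicted or clone names, up to 4 genes per list by p, the study's genes of 2.5 months, Aif1 and Gfap, and up to 8 genes each of the 2.5-month strain and interaction fits. Some genes that this rule names are not reported here. Members and lists were chosen with earlier results of these data known. Alternatives were DESeq2 1.42.0, limma 3.58.1 voom, other scaling and filters, all 41 libraries, covariates, a GC and length offset, the replicate block and leaving out each library.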

Additional observations from a re-analysis of the deposited data

Results flagged for a closer look

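In 12 of 129 groups of SAMP8 values looked at, 1 of the 4 libraries lay far from the other 3, with a gap that took more of the group's range than Dixon's 95% limit for 4 values. Chance gives this in about 1 of 20 groups. SAMP8 replicate 4 was the far library for the summed CPM of choroid plexus genes (gap of 0.971 of the range), for that of ependymal and motile cilia genes (0.896), for Ttr (0.967) and, on the low side, for Npas4 (0.910). SAMP8 replicate 1 was the far library for the summed CPM of cholesterol synthesis genes (0.862) and for Cux2 (0.903), Mef2c (0.868), Cplx3 (0.845) and Ogn (0.833), where it was high, and for Gm7887 (0.843), where it was at 0. SAMP8 replicate 2 was low for Vcp-rs (0.874) and SAMP8 replicate 3 was low for Lhx9 (0.835).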

How the results depend on the processing

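The 59 called genes became 117 with DESeq2, 182 with limma voom, 156 with no filter on low counts and 89 with the GC and length offset. They became 14 with all 41 libraries in one model, 19 with the cortical layer score and 5 with the region position as covariate, and 31 with a false discovery rate limit of 0.05 at any fold. Leaving out one library gave 5 to 88, with 5 lacking SAMR1 replicate 1 (1 SAMR1 library left) and 29 lacking SAMP8 replicate 2. Leaving out both SAMP8 replicate 4 and SAMR1 replicate 1, chosen after seeing the data, gave 34. Vcp-rs was called under all of these. The cause of the changes was not tested.

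Numbers 1 and 2 occur in both strains, but libraries of the same number did not deviate together (correlations 0.0329 and -0.0656). With the replicate block 26 genes were called, 13 of them among the 59, and with block and GC and length offset 103.

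The difference between ages gave 0 calls, 1 with DESeq2 and 0 to 2 with one library left out.

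Directions turned only in genes that were not called. Nnat was at 0.00191 with the replicate block and ranged from -0.91 to 0.435 with one library left out (0.435 without SAMR1 replicate 2), and Peg10 from -0.54 to 0.33 (without the same library). Hap1 was at 0.135, 0.311 and 0.121 with the choroid plexus, cortical layer and region covariates, 0.137 with the block, 0.0209 with the offset, 0.324 with both, -0.343 to 0.0497 with one library left out (0.0497 without SAMP8 replicate 4) and 0.025 with SAMR1 replicate 1 left out too. Aif1 was at 0.251 with voom, 0.12 with the choroid plexus covariate, 0.00471 with the block, -0.301 to 0.158 with one library left out (0.158, 0.0599 and 0.095 without SAMP8 replicate 1, SAMP8 replicate 4 and SAMR1 replicate 1), and 0.177 without the last 2. Npas2 was at 0.0091 with the cortical layer covariate, and Ttr at -1.78 and -1.6 with the cortical layer and region covariates. With 2 SAMR1 libraries, one of them the shallowest, the spread within SAMR1 is poorly known.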
